A study of Homo sapiens with 6 samples.

Results

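LaminB1 regions on the 5 human acrocentric chromosomes, 13, 14, 15, 21 and 22, were examined in HCT116, a human colorectal carcinoma cell line. They were all rows on these chromosomes in the region lists of 4 LaminB1 libraries, 3530 of 49022 regions on chromosomes 1 to 22 and X. Control libraries 1 and 2 contributed 762 of 10771 and 985 of 13599 regions. Double loss libraries 1 and 2 contributed 890 of 12410 and 893 of 12242. These regions held 380006 and 373368 LaminB1 reads in control, and 435770 and 450182 in double loss, with medians of 284, 220, 314 and 321 reads per region in the same order. The libraries were made by CUT&RUN, in which a nuclease directed by an antibody releases the DNA near the bound protein, so regions rich in LaminB1 reads mark DNA close to the nuclear lamina.

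All cells carried the mini auxin-inducible degron (mAID) on both TOP2A alleles and were held in G1 with 2 uM palbociclib, an inhibitor of CDK4 and CDK6, for 28 h. Control cells received no auxin and kept TOP2B. They are called wild type in the labels, although their TOP2A was tagged. Double loss cells were TOP2A mAID/TOP2B -/- and received 500 uM auxin (indole-3-acetic acid) for 8 h, which removes up to 95% of TOP2A according to the series text. Whether the TOP2B -/- line was a single clone is not given in the sources used here, and line, genotype and auxin cannot be told apart. Each group had 2 LaminB1 libraries. Nothing states that they came from separate cultures, so p-values measure only the spread between these libraries, which may be technical.

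Acrocentric chromosomes have a very small short arm, which carries tandem arrays of ribosomal RNA genes. These arrays are the nucleolus organizers, around which nucleoli form, and the DNA beside them is largely repeated sequence. The nuclear lamina is a meshwork of lamins under the inner nuclear membrane, where gene-poor and silent chromatin tends to lie, and silent chromatin is also found around nucleoli. TOP2A and TOP2B pass a DNA duplex through another and so relieve supercoils and tangles.

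Most promoters of these chromosomes lay outside regions, and over the 5 chromosomes together those inside were poorer in CpG. RefSeq promoter sequences (GRCh38.p14, 300 bases around the transcription start) matched 1855 of 2218 protein-coding genes. The transcription start was inside a region of all 4 lists for 11 genes (0.593%), of 1 to 3 lists for 83 and of none for 1761. Over all chromosomes in the promoter table, 394 of 15811 starts (2.49%) were in all 4 lists. Median GC content was 52.7% for the 11, 51.3% for the 83 and 64.3% for the 1761, and the median number of CpG was 7, 5 and 24. Promoters inside regions were also poorer in CpG over all chromosomes, with medians of 4, 7 and 23 in the same classes. Chromosome 15 was an exception, since its 11 promoters in 1 to 3 lists had a median of 24 CpG and its 526 in none a median of 23. A match to the letters TATAAA on either strand was present in 0 of the 11, in 22 of the 83 (26.5%) and in 154 of the 1761 (8.75%). Over all chromosomes it was present in 20.1%, 18.9% and 8.67% of the same classes, and in 9.64% of all promoters in the table. On chromosome 21, 10 of 13 promoters in 1 to 3 lists held it, as did 36 of 169 in none. No promoter of chromosome 22 lay in a region of any list.

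Promoters of 5 genes show this range, with each CpG in capitals. FGF14 (fibroblast growth factor 14, which binds voltage-gated sodium channels) lies under the longest region of the 5 chromosomes, and its start was in all 4 lists. SV2B, a synaptic vesicle glycoprotein, was in all 4 lists on chromosome 15. NRXN3, a presynaptic adhesion protein, had its start in both control lists and in neither double loss list. The starts of OR4M1, an olfactory receptor, and KRTAP11-1, a keratin-associated protein of hair, were in both double loss lists only. The FGF14 promoter is at chr13:102402394-102402693 (minus strand, 11 CpG), that of SV2B at chr15:91099338-91099637 (plus, 6 CpG), and that of NRXN3 at chr14:78170123-78170422 (plus, 5 CpG). The OR4M1 promoter is at chr14:19773254-19773553 (plus, 1 CpG) and that of KRTAP11-1, which holds a TATAAA match, at chr21:30881531-30881830 (minus, 1 CpG).
FGF14: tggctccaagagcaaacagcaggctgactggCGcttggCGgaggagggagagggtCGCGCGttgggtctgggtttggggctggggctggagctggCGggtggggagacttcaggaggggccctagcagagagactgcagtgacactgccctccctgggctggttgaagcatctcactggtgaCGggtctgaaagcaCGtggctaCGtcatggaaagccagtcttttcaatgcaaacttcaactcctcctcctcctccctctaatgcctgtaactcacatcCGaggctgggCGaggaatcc
SV2B: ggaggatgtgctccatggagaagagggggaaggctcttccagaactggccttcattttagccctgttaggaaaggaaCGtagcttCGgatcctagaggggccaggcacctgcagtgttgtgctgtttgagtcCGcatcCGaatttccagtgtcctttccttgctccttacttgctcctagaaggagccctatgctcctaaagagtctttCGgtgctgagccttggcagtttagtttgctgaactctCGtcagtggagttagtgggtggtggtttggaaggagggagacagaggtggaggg
NRXN3: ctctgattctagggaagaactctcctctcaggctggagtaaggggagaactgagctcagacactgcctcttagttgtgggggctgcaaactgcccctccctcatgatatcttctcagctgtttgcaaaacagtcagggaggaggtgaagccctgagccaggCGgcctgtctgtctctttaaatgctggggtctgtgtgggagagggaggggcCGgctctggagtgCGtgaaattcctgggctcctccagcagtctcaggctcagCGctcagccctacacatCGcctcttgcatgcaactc
OR4M1: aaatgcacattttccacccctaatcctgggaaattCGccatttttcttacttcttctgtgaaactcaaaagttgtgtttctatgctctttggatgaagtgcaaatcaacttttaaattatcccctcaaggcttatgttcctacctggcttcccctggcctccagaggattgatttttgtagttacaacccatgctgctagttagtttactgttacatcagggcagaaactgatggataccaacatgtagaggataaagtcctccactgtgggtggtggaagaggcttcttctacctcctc
KRTAP11-1: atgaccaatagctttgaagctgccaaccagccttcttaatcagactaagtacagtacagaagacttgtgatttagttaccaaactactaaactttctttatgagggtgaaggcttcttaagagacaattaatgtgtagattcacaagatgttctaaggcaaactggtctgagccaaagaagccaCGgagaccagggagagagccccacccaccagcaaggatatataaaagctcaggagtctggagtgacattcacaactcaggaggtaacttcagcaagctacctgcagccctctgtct

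The 5 chromosomes differed widely in how much of their sequence lay in regions. Covered share is given as the percent of 1 kb steps inside regions, from the first to the last protein-coding gene. On chromosome 13 it was 16.7% and 15.6% in control 1 and 2 and 14.1% and 14.4% in double loss 1 and 2. Chromosome 14 had 8.48% and 7.92% against 11.04% and 11.9%. On chromosome 15 the values were 8.89% and 7.79% in the control libraries, and 9.11% and 9.46% in the double loss libraries. Chromosome 21 was at 2.75% and 3.10% in control and at 4.61% and 4.54% in double loss. Chromosome 22 had 0.196% and 0% against 0.638% and 0.499%. The double loss libraries were thus lower on chromosome 13 and higher on the other 4, with no overlap between groups on any of the 5. Of the other 17 autosomes, 12 also had groups that did not overlap, 11 higher and 1 lower in double loss.

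The mean differences, double loss minus control, were -1.92 percentage points on chromosome 13, 3.28 on 14, 0.949 on 15, 1.65 on 21 and 0.471 on 22. Each gave an exact permutation p of 0.333 (two-sided, also after Benjamini-Hochberg adjustment over the 5), the smallest that 2 against 2 libraries allow, so none could pass a threshold of 0.05. Keeping only the upper 50% of each list by log2 fold changed the differences to -0.763, 1.27, 0.675, 0.0972 and 0 points in the same order. Over the whole length of chromosome 22, with the sequence before its first gene, the difference was 1.19 points. Without control 1 the chromosome 15 difference was 1.498 points and without control 2 it was 0.400.

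**Figure D1:**
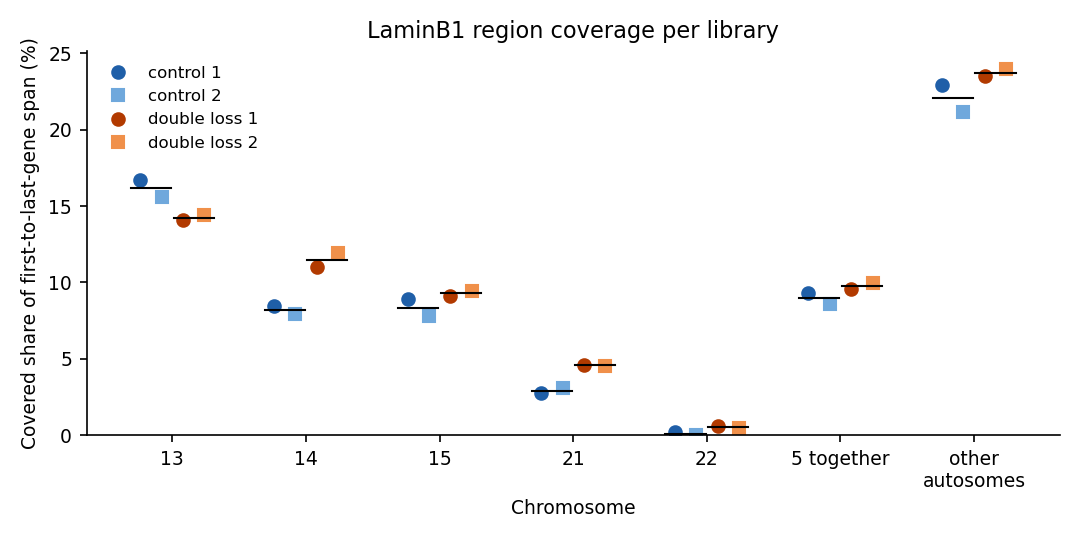
Covered share of each acrocentric chromosome (x axis; y axis in percent of the span from first to last protein-coding gene), with 1 point per library and bars at group means. The double loss points lie below the control points on chromosome 13 and above them on 14, 15, 21 and 22.

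The 5 chromosomes together were covered less than the other 17 autosomes in every library. Their joint share was 9.32% and 8.62% in control and 9.56% and 9.94% in double loss, while the other autosomes had 22.9% and 21.2% against 23.5% and 24.0%. The acrocentric share was thus lower by 13.6 and 12.6 points in control and by 13.9 and 14.02 points in double loss. This gap differed between groups by -0.910 points (exact permutation test, two-sided p = 0.333). It differed by -1.54 points when chromosome 20, whose share was 34.6% in control and 12.8% in double loss, was left out of the comparison set. Leaving out chromosomes 8, 10, 16, 17 and 20 gave -1.73 points. Without control 1 the value was -1.43 points and without control 2 it was -0.394.

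Among the 22 autosomes ordered from most to least covered, chromosome 22 was 22nd and chromosome 21 was 20th in all 4 lists. Chromosome 13 was 13th in both control lists, 14th in double loss 1 and 15th in double loss 2. Chromosomes 14 and 15 took places 17 to 19. Gene density, in protein-coding genes per Mb, was 3.53 on 13, 5.71 on 21, 6.94 on 14, 7.38 on 15 and 12.5 on 22. Chromosome 21 therefore had a lower covered share than 14 and 15 at a lower gene density, and chromosome 18, at 3.34 genes per Mb, had a mean share of 13.9% in control and 15.9% in double loss.

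Within each library, chromosome 13 exceeded each of the other 4 and chromosome 22 lay below each of the other 4. The excess of 13 over 14 was 8.25 and 7.66 points in control and 3.03 and 2.48 points in double loss, the widest change between groups among the 10 pairs (-5.20 points). Chromosomes 14 and 15 were the pair whose order differed between libraries, at -0.404, 0.131, 1.93 and 2.46 points (exact sign-flip p = 0.375, two-sided). The other 9 pairs kept 1 order in all 4 libraries, each with an exact sign-flip p of 0.125, or 0.139 after Benjamini-Hochberg adjustment over the 10. With 4 libraries 0.125 is the smallest p possible.

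Regions were narrower in control 2 than in the other 3 libraries, except on chromosome 22. Median width over the 5 chromosomes was 26.5 kb and 19 kb in control, and 27 kb in both double loss lists. On the other autosomes it was 30 kb and 22 kb in control and 29 kb and 30 kb in double loss. By chromosome, median widths ranged from 17.5 kb (chromosome 21, control 2) to 36 kb (chromosome 22, double loss 2). The signs of the group differences on chromosomes 13 and 21 rested on control 2: without it they were -1.5 kb and -2.25 kb, where all 4 lists gave positive values.

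The longest region of each list on these chromosomes lay over FGF14 on chromosome 13. It spanned 671 kb in control 1 (chr13:101756001-102427000), 603 kb in control 2, 359 kb in double loss 1 and 502 kb in double loss 2. On chromosome 14 the longest region lay over NRXN3 in all 4 lists and reached 500 kb and 284 kb in control and 299 kb and 212 kb in double loss. Chromosome 22 held none over 113 kb. The longest regions of the other autosomes were between 1897 kb and 2623 kb.

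Position along the chromosome was measured from the end of the first protein-coding gene, because the short arms hold little assembled sequence. These genes were TUBA3C (an alpha-tubulin, end at chr13 position 19181824), OR11H12 (an olfactory receptor, chr14, 18602097), LOC124903442 (chr15, 20332127), LOC124905051 (chr21, 5017158) and OR11H1 (an olfactory receptor, chr22, 15529139). TUBA3C, OR11H12, LOC124905051 and OR11H1 were covered in no list, and LOC124903442 only in control 2, over 21.9% of its length.

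Over the 5 chromosomes together, coverage was lowest within 10 Mb of that point and highest beyond 40 Mb. The classes differ in their chromosomes, so this order mixes distance with chromosome. The class at 0 to 5 Mb lies before the longest gap between genes on chromosome 21 and after it on chromosomes 14 and 22. Beyond 40 Mb, chromosome 13 gave 55.1 of 145.2 Mb, chromosome 21 gave 1.65 Mb and chromosome 22 gave none. At 0 to 5 Mb, the 5 chromosomes together had 1.95% and 1.66% covered in control and 3.90% and 3.54% in double loss. From 5 to 10 Mb the shares were 0.916% and 1.02% against 1.48% and 1.17%. From 10 to 20 Mb they were 4.56% and 4.29% against 5.64% and 5.94%. From 20 to 40 Mb they were 3.92% and 3.63% against 4.81% and 5.07%. Beyond 40 Mb the groups overlapped, at 17.2% and 15.9% in control and 16.4% and 17.1% in double loss.

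The 4 nearer distance classes were higher in both double loss libraries, by 1.91, 0.354, 1.37 and 1.16 points in order of distance (exact permutation p = 0.333 each, two-sided, 0.417 after Benjamini-Hochberg adjustment over 5 classes). In the class from 0 to 5 Mb, the difference was -0.046 points when only the upper 50% of regions by log2 fold was kept, so its direction rested on regions of lower fold. It was 1.49 points when regions with at least 1.5 times the median control library density of the other autosomes were left out. Measured from the end of the first gene of any type, the differences were 3.03, 1.04 and 0.626 points in the 3 nearest classes. Beyond 40 Mb the difference of 0.202 points became -0.471 without control 2 and 0.876 without control 1.

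**Figure D2:**
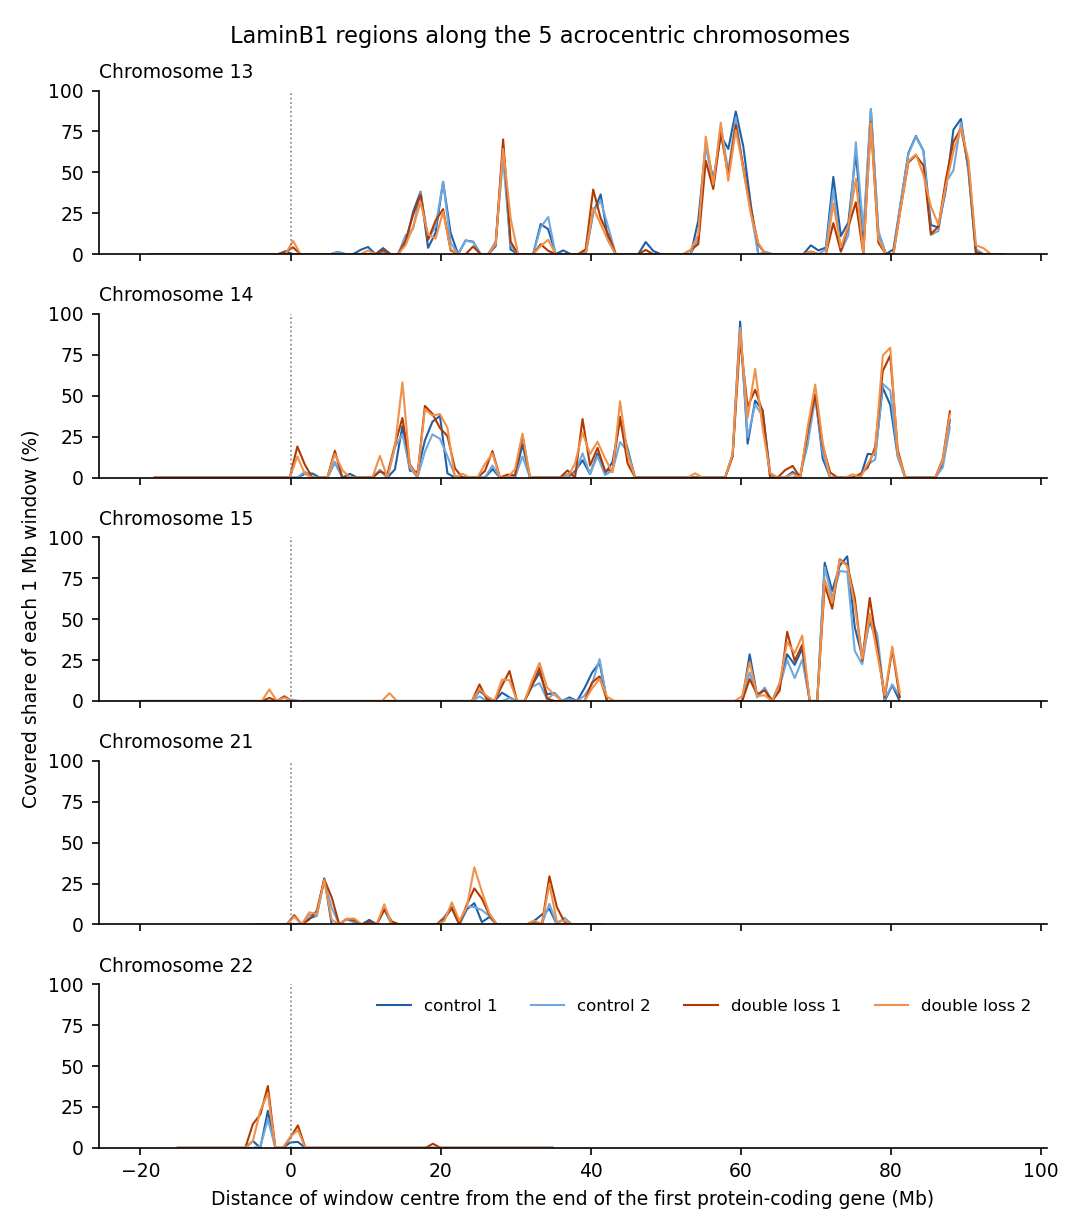
Covered share of 1 Mb windows (y axis, percent) against distance from the end of the first protein-coding gene (x axis, Mb; the dotted line is 0) on each acrocentric chromosome, with 1 line per library. After the dotted line chromosome 15 stays at 0 for 10 Mb or more apart from a 1 Mb window that straddles the line, at 0.8% in control 2, and chromosome 22 is almost empty away from its start.

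Each chromosome had its own profile. Chromosome 13 was at 0% and 0% in control and 0.84% and 1.64% in double loss over its first 5 Mb. Beyond 40 Mb it had 23.7% and 21.9% against 19.996% and 20.8%, and from 20 to 40 Mb 8.86% and 8.51% against 6.34% and 6.48%. Its lower share in double loss was therefore found in both of its distal classes. On chromosome 14 the double loss libraries were higher in all 5 classes. Its first 5 Mb had 0.96% and 0.72% against 5.38% and 3.04%, and the class from 10 to 20 Mb had 11.7% and 10.4% against 16.2% and 19.9%.

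Chromosome 15 had no covered step in its first 10 Mb in any list, and from 10 to 20 Mb 0.48% in double loss 2 only. These stretches include the imprinted genes SNRPN and UBE3A, neither of which was covered in any library. Beyond 40 Mb chromosome 15 had 15.9% and 14.5% in control and 16.1% and 16.5% in double loss.

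Chromosome 21 ran the other way, with its highest shares in the first 5 Mb. They were 7.42% and 7.60% in control and 9.26% and 9.50% in double loss, against 3.04% and 3.35%, and 5.63% and 6.07%, from 20 to 40 Mb. Its first gene lies before the longest gap between genes (chr21:10649836-13038165), while those of chromosomes 14 and 22 lie after theirs. These first 5 Mb of chromosome 21 thus lie before the gap and hold the rRNA genes placed there. They are not like the first 5 Mb of those 2 chromosomes, and the profile depends on this origin. Chromosome 22 had 1.38% and 0% in control and 4% and 3.52% in double loss in its first 5 Mb. Farther out it had no covered step in 3 lists, and 0.25% from 10 to 20 Mb in double loss 1.

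Regions also lay before the first gene end, mainly on chromosome 22. In total they numbered 9 and 8 in control and 23 and 16 in double loss. On chromosome 22 there were 8 and 7 against 16 and 12, covering 268 kb and 183 kb against 727 kb and 603 kb. Chromosome 15 had 0 and 1 against 5 and 4, chromosome 13 had 1 and 0 against 2 and 0, and chromosomes 14 and 21 had none.

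The density of reads inside these proximal regions was unlike that farther along. Before the first gene end, LaminB1 reads per kb were 19.7 and 20.5 in control and 25.2 and 23.8 in double loss. Beyond 40 Mb they were 11.7 and 12.5 against 12.5 and 12.6. The lists also give the reads of a control library in each region. Its identity is not stated, and same-edge regions had equal control counts within a group (3 of 3 and 9 of 9) and never between groups (0 of 20), so each group had 1 control library and its values carry no test. Before the first gene end these reads were at 14.7 and 14.8 per kb in control and 21.2 and 19.5 per kb in double loss. Beyond 40 Mb they were at 6.55 and 6.57 against 8.36 and 8.38.

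Over the 5 chromosomes together, both kinds of reads were denser near the short arms and their ratio was lower there, a value carried mainly by chromosomes 21 and 22. On chromosome 13, LaminB1 reads at 0 to 5 Mb were at 10.1 and 10.6 per kb in double loss, below the 12.5 and 12.6 beyond 40 Mb. At 0 to 5 Mb the 5 together had 22.2 and 25.1 LaminB1 reads per kb in control and 20.4 and 21.5 in double loss, the reverse order of groups to that before the first gene end. LaminB1 over control library reads was 1.34 and 1.39 in control and 1.19 and 1.22 in double loss before the first gene end. At 0 to 5 Mb it was 1.32 and 1.32 against 1.17 and 1.19. Beyond 40 Mb the ratio was 1.79 and 1.90 against 1.49 and 1.5. The part of repeated sequence or copy number in these densities was not tested.

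**Figure D3:**
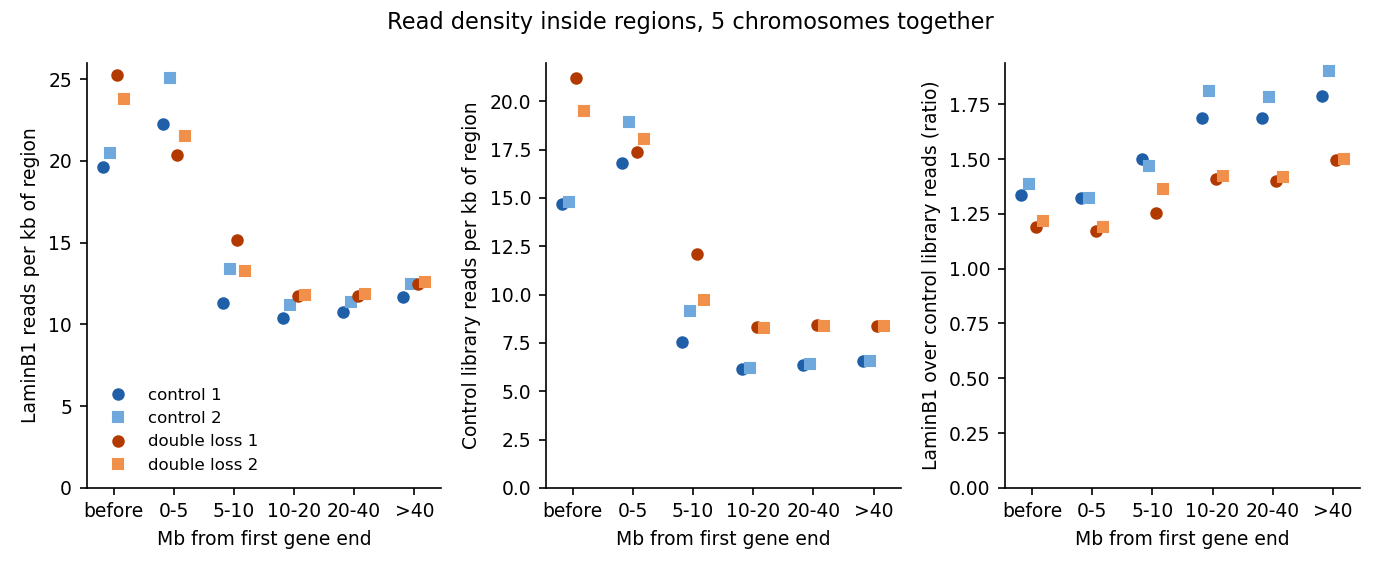
LaminB1 reads per kb, control library reads per kb and their ratio (y axes) inside regions of the 5 chromosomes together, by distance from the end of the first protein-coding gene (x axis, Mb), with 1 point per library. Both densities are highest before 5 Mb, where the ratio is lowest.

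Chromosomes 21 and 22 carried most of these dense regions. Regions with a control library density at least 1.5 times the median of the other autosomes made up 36.4% and 38.7% of covered kb on chromosome 21 in control, and 33.4% and 29.4% in double loss. On chromosome 22 they made up 79.5% and 94.5% against 72.4% and 71.6%. Over the 5 chromosomes their part was 2.38% and 2.75% against 4.19% and 3.79%, less than the 6.60% and 7.00%, and 7.09% and 6.98%, of the other autosomes. Without them the difference between groups on chromosome 21 was 1.31 points. That on chromosome 22 stayed at 0.471. Its dense regions lay before the first gene, outside the counted span, so leaving them out could not change it.

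On chromosome 21 density differed between the sides of the longest gap between genes, chr21:10649836-13038165. Before it, LaminB1 reads were at 25.9 and 23.6 per kb in control and 26.3 and 29.4 in double loss, and control library reads at 19.99 and 17.8 against 22.7 and 25.0. After it, LaminB1 reads were at 10.3 and 10.8 per kb against 11.6 and 11.7, and control library reads at 6.16 and 6.31 against 8.35 and 8.44. The 1 or 2 regions inside the gap lay between, with 16.6 and 17.3 LaminB1 reads per kb against 19.5 and 18.04. Density also varied before the gap: in control 1 it was 43.01 reads per kb in the densest region, chr21:9292001-9377000, and 13.9 in the longest, chr21:9839001-9996000. After this gap the covered length was 728 kb and 764 kb in control and 1251 kb and 1336 kb in double loss. Regions of ordinary density were thus longer in total in both double loss libraries.

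LaminB1 reads per kb relative to the other autosomes of the same library gave the same contrast on the log2 scale. Chromosome 13 was at -0.09 in both control libraries and at -0.12 and -0.11 in double loss, and chromosome 14 at -0.16 and -0.15 against -0.12 and -0.13. Chromosome 21 was at 0.33 and 0.25 against 0.30 and 0.29, with overlapping groups. Chromosome 22 was at 0.56 and 0.64 against 0.75 and 0.73, a difference of 0.15 (exact permutation p = 0.333, two-sided). The control library densities stood at 0.98 and 1.10 against 1.10 and 1.04 on chromosome 22, and at 0.65 and 0.63 against 0.57 and 0.55 on chromosome 21.

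The ribosomal RNA genes placed on chromosome 21 were in no region. No rRNA precursor genes of the other acrocentric chromosomes were among the genes used, so their tandem arrays were not examined. The gene table places RNA45SN1, RNA45SN2 and RNA45SN3, which encode the precursor of the large ribosomal RNAs, with other rRNA genes at chr21:8205988-8446572. This locus was chosen after the values were seen. None of the 4 lists covered any of its 240.6 kb, and the nearest region after it began 386 kb away in both control lists and 76.4 kb away in both double loss lists. How reads that match several copies were treated is not given in the sources used here.

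Stretches called in all 4 lists, in both double loss lists only, or in both control lists only separated the chromosomes further. Of the 56.6 Mb covered in any list, 13.7 Mb (24.2%) was in all 4, against 38.5% on the other autosomes. Chromosome 13 had 0.789 Mb in both double loss lists only and 1.43 Mb in both control lists only. Chromosome 14 had 1.56 Mb and 0.327 Mb, chromosome 15 had 0.761 Mb and 0.422 Mb, chromosome 21 had 0.348 Mb and 0.066 Mb, and chromosome 22 had 0.379 Mb and 0 Mb. The control-only length thus exceeded the double-loss-only length on chromosome 13 and was the smaller on the other 4. It was also the smaller on the other autosomes together, with 36.6 Mb against 52.4 Mb in double loss only. As parts of the length in any list, double-loss-only and control-only stretches made up 6.77% and 3.96% on the acrocentric chromosomes. The same parts were 6.39% and 4.46% on the other autosomes.

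The longest shared stretches were chr13:100742001-100996000 (254 kb, no protein-coding gene) and chr13:102163001-102415000 (252 kb, in FGF14). The longest in double loss only were on chromosome 22, before the first gene, at chr22:11865001-11960000 (95 kb) and chr22:11285001-11378000 (93 kb). They were followed by chr14:19752001-19814000 (62 kb, over the olfactory receptor genes OR4N2, OR4M1 and OR4Q3) and chr14:19902001-19956000 (54 kb, over OR4K1 and OR4K5). At chr22:11865001-11960000, double loss 1 had 36.3 LaminB1 and 32.4 control library reads per kb, a log2 fold of 0.0967. Its median log2 fold over the regions of chromosome 13 was 0.505. The longest in control only were chr13:94736001-94774000 (38 kb) and chr13:103281001-103311000 (30 kb), neither with a protein-coding gene. The next was 26 kb at chr13:95556001-95582000, over CLDN10, a claudin of tight junctions, and DZIP1, a protein of ciliary basal bodies. Overlap between lists, as shared over joint length, was 0.502 for control 1 with control 2 and 0.49997 for double loss 1 with double loss 2. Between lists of different groups it was 0.450 to 0.463.

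LaminB1 reads inside the stretches shared by all 4 lists were compared in 1 Mb windows by edgeR's quasi-likelihood test, fitted on all 771 windows of the genome with at least 100 kb of such stretches. Genome-wide, 13.7% of windows rose and 14.4% fell in double loss at an adjusted p under 0.05. Of the 36 windows on acrocentric chromosomes, 4 rose and 8 fell. All 8 that fell were among the 18 of chromosome 13, whose median log2 change was -0.05, against 0.00 over all windows. Chromosome 14 had 2 of 7 that rose and chromosome 15 none of 9 in either direction. The single windows of chromosomes 21 and 22 rose.

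Of the 8 windows that fell, 7 began between 94 Mb and 108 Mb on chromosome 13. Genes named with a window overlap it anywhere, while reads were counted only in its shared stretches. LaminB1 reads are given as CPM, scaled by TMM to the reads that each library had in all 771 windows. Library depth, which is unknown here, was not used. In the window from 101 Mb, over NALCN (a sodium leak channel) and FGF14, control had 1076 and 1078 CPM. Double loss had 978 and 983 CPM. All control values exceeded all double loss values there, and the log2 change was -0.14 (SE 0.0163, edgeR adjusted p = 0.000558). The window from 96 Mb, over HS6ST3, a heparan sulfate 6-O-sulfotransferase, had 2362 and 2373 against 2210 and 2229 CPM (log2 change -0.09, SE 0.0115, edgeR adjusted p = 0.000649). The window from 94 Mb, over GPC6 (a glypican) and DCT (dopachrome tautomerase of melanin synthesis), had 358.5 and 358.5 against 326 and 329 CPM (log2 change -0.13, SE 0.0200). Only 124 kb of that window lay in shared stretches.

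The control library moved beside some of these windows and not beside others. Relative to its genome median, its log2 change was -0.11 in the window from 101 Mb, -0.04 from 96 Mb and -0.03 from 94 Mb. It was 0.01 in the window from 76 Mb, where LaminB1 reads fell by 0.05. In windows that were not called, it was -0.14 from 109 Mb and -0.09 from 107 Mb, where the LaminB1 change was 0.00 in both. On chromosome 14 it was 0.11 in the window from 37 Mb, where LaminB1 reads rose by 0.12. That window holds MIPOL1, TTC6, SLC25A21 and FOXA1 (a pioneer transcription factor), but only 101 kb of it lay in shared stretches. The control library change was 0.06 from 88 Mb, over KCNK10 (a potassium channel), where LaminB1 reads rose by 0.06. The control library was the same within a group, so its part in the LaminB1 changes was not tested.

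The window from 9 Mb on chromosome 21 rose most. It had 1649 and 1660 CPM in control and 1921 and 1929 in double loss, a log2 change of 0.22 (SE 0.0129, edgeR adjusted p = 1.4e-05). LaminB1 reads stood at 25.9 and 27.6 per kb against 32.7 and 33.0. Control library reads stood at 20.2 and 21.2 per kb against 28.5 and 28.6, a relative log2 change of 0.09. LOC101927345 was the protein-coding gene there and was covered over its full length in all 4 lists. On chromosome 22 the window from 12 Mb, before the first protein-coding gene, had 683 and 650 against 707 and 715 CPM (log2 change 0.09, SE 0.0258, edgeR adjusted p = 0.0308), while the control library changed by -0.07.

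Which windows were called depended on the tool and on single libraries. DESeq2 called 1 that rose and 2 that fell. Leaving out control 1 gave 2 and 6, leaving out control 2 gave 2 and 7, leaving out double loss 1 gave 1 and 4, and leaving out double loss 2 gave 2 and 6. The window from 96 Mb on chromosome 13 stayed called under every alternative run, where the 3 Mb window of the same start stood for it in 1 of them. The windows from 101 Mb on chromosome 13 and 9 Mb on chromosome 21 stayed called wherever they were fitted. Neither had a value where only regions at least 80% inside shared stretches were kept. In 3 Mb windows the first was not fitted as such, and for the second the 3 Mb window of the same start was used.

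**Figure D4:**
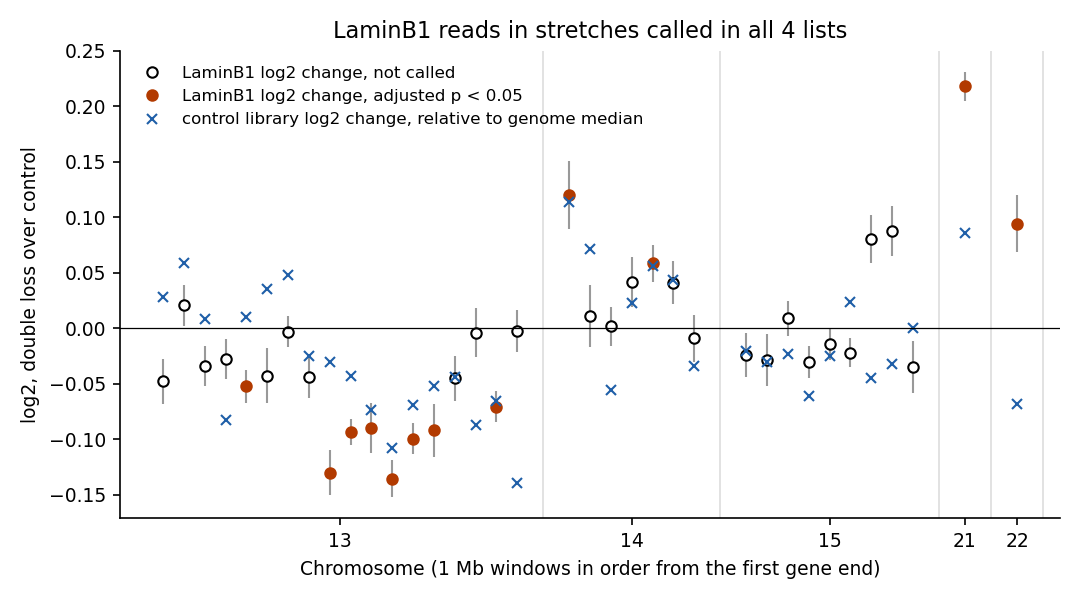
log2 change of LaminB1 reads, double loss over control (y axis), in 1 Mb windows of stretches called in all 4 lists, ordered along each acrocentric chromosome (x axis). Filled points had an edgeR adjusted p under 0.05 and open points were not called. Error bars show the SE of the log2 change. Crosses show the log2 change of control library reads relative to its genome median. The 8 windows that fell are all on chromosome 13, and the chromosome 21 window, at 0.22, is the highest.

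Coverage of 100 kb bins was compared by limma on the arcsine square root of covered share, fitted on 12153 bins. Genome-wide, 0.642% of bins rose and 0.296% fell at an adjusted p under 0.05. Of 934 bins on acrocentric chromosomes, 2 rose and 0 fell, and at an unadjusted p under 0.05 there were 89 and 53. The bin chr22:11300001-11400000 went from 0% in both control libraries to 78% in both double loss libraries (limma adjusted p = 0.0456). It lies before the first gene of chromosome 22. All double loss regions before the first gene end of chromosome 22, not this bin alone, had 25.8 and 25.2 LaminB1 reads per kb. Their control library reads were at 21.9 and 20.6 per kb. The bin chr21:39600001-39700000, over B3GALT5, a beta-1,3-galactosyltransferase, went from 0% and 0% to 63% and 65% (limma adjusted p = 0.0456). Both calls rested on libraries that barely differed within a group, and neither held on untransformed shares.

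Counts of bins whose groups did not overlap follow the covered shares. Genome-wide they were 24.5% higher and 15.6% lower in double loss. On the acrocentric chromosomes they were 185 (19.8%) and 142 (15.2%) of 934. Chromosome 13 had 39 higher and 95 lower of 376, chromosome 14 had 72 and 17 of 278, chromosome 15 had 41 and 27 of 187, chromosome 21 had 20 and 3 of 71, and chromosome 22 had 13 and 0 of 22. Chromosome 13 alone had more lower than higher bins. Among bins that were not called, chr14:39800001-39900000 had 0% and 13% in control and 86% and 96% in double loss (limma adjusted p = 0.117). On chromosome 13, chr13:91200001-91300000 had 91% and 80% against 14% and 27% (limma adjusted p = 0.122). When a double loss library was left out, many more bins were called, 124 that rose without double loss 1 and 118 without double loss 2. Without control 1, 65 fell and 3 rose.

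Gene bodies gave few calls. Of 2218 protein-coding genes, 202 were covered in at least 1 list: 77 of 336 on chromosome 13, 62 of 603 on 14, 32 of 602 on 15, 31 of 238 on 21 and 0 of 439 on 22. Genome-wide, 1.67% of 3051 covered genes rose and 1.02% fell in limma at an adjusted p under 0.05. On the acrocentric chromosomes 5 rose and 1 fell. Non-overlapping groups, higher or lower, were found for 34 and 28 of the 202, against 21.5% and 13.9% genome-wide. The lower ones were mainly on chromosome 13, with 18 of 77, and the higher ones on chromosome 14, with 18 of 62.

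The 5 genes that rose were covered over 0% of their length in both control libraries and 100% in both double loss libraries (limma adjusted p = 0.014 each). They were OR4M1, OR4K1 and OR4K5 among the olfactory receptors of chromosome 14, and KRTAP11-1 (0.937 kb long) and KRTAP19-8 (0.318 kb long) on chromosome 21. OR4K1 and OR4K5 overlap, so they hold a single stretch, and both are named after their values were seen. The gene that fell was DZIP1, with 52.3% and 47.8% in control and 0% in both double loss libraries (limma adjusted p = 0.0271). With 10 kb flanks added, the adjusted p in limma was 0.0506 for the 3 olfactory receptor genes, 0.12 for KRTAP11-1, 0.595 for KRTAP19-8 and 0.0898 for DZIP1, so no call was kept. Leaving out control 1 gave 8 genes that rose and 30 that fell, leaving out control 2 gave 6 and 23, omitting double loss 1 gave 37 and 5, and omitting double loss 2 gave 30 and 5.

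Over the olfactory receptor stretch, the double loss regions had 11 and 10.4 control library reads per kb, above the 8.36 and 8.38 found beyond 40 Mb. The pericentromeric families, which include POTE, GOLGA8 and these OR4 genes, had 33 measured members, of which 5 were covered (TPTE, TPTE2, OR4M1, OR4N2 and OR4Q3). Of them 1, OR4M1, rose and none fell, against 1.67% and 1.02% of covered genes genome-wide. Groups did not overlap for 3, all higher, against 21.5% higher and 13.9% lower genome-wide. These were OR4N2, OR4M1 and OR4Q3, neighbours that share 1 stretch of 62 kb, so they are not separate observations. These families have near-identical copies, so how reads were placed among them is uncertain. OR4N2 was at 0% and 0% in control and 100% and 38.6% in double loss, and OR4Q3 at 0% and 0% against 100% and 3.81%. Over all 33 measured members the mean covered share was 0.710% in control and 7.07% in double loss, and the median was 0% in both groups.

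Of genes of at least 20 kb, the 8 with the widest gap between groups in the higher direction lay on chromosome 14 (4), 15 (2) and 21 (2), and of the 8 in the lower direction 5 lay on 13. B3GALT5 had 0% and 0% against 71.7% and 48.4% (limma adjusted p = 0.103). CERS3, a ceramide synthase of the skin barrier, had 15.2% and 11.8% against 57.3% and 78.7%. SLC35F4 had 25.3% and 27.0% against 55.9% and 59.5%. SLC25A21, the mitochondrial oxodicarboxylate carrier, had 37.6% and 25.3% against 64.9% and 66.3%. EGLN3, an oxygen-sensing prolyl hydroxylase, had 0% and 55.0% against 85.1% and 78.5%. GRIK1, a kainate receptor subunit, had 14.9% and 9.43% against 36.5% and 48.1%. DET1 had 0% and 0% against 27.0% and 22.5%. Groups did not overlap for any of these, and none passed the limma threshold.

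In the lower direction, LRTM3 had 100% and 67.3% in control and 0% in both double loss libraries. TUNAR had 64.3% and 44.8% against 0% and 0%. SV2B had 78.3% and 78.8% against 28.8% and 46.02%. DCT had 89.9% and 92.5% against 34.6% and 73.0%. EPSTI1 had 21.7% and 19.8%, and CNMD (chondromodulin of cartilage) 13.2% and 27.4%, against 0% in both double loss libraries for each. Of the 8 lower genes by the naming rule, DZIP1 among them, 1 passed the limma threshold. Among the 50% of regions with the highest log2 fold, the difference of means was -1.87 points for CERS3 and 4.80 points for DCT, so both changed sign. It was 0 for B3GALT5, OR4N2, EGLN3, DET1, TUNAR and CNMD, so their whole difference rested on regions of lower fold. For SLC35F4 it was 3.08 points, for GRIK1 1.74 and for SLC25A21 33.2. LRTM3 had -33.7 points, SV2B -30.7, EPSTI1 -10.9, DZIP1 -6.77 and RHOJ -6.46.

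**Figure D5:**
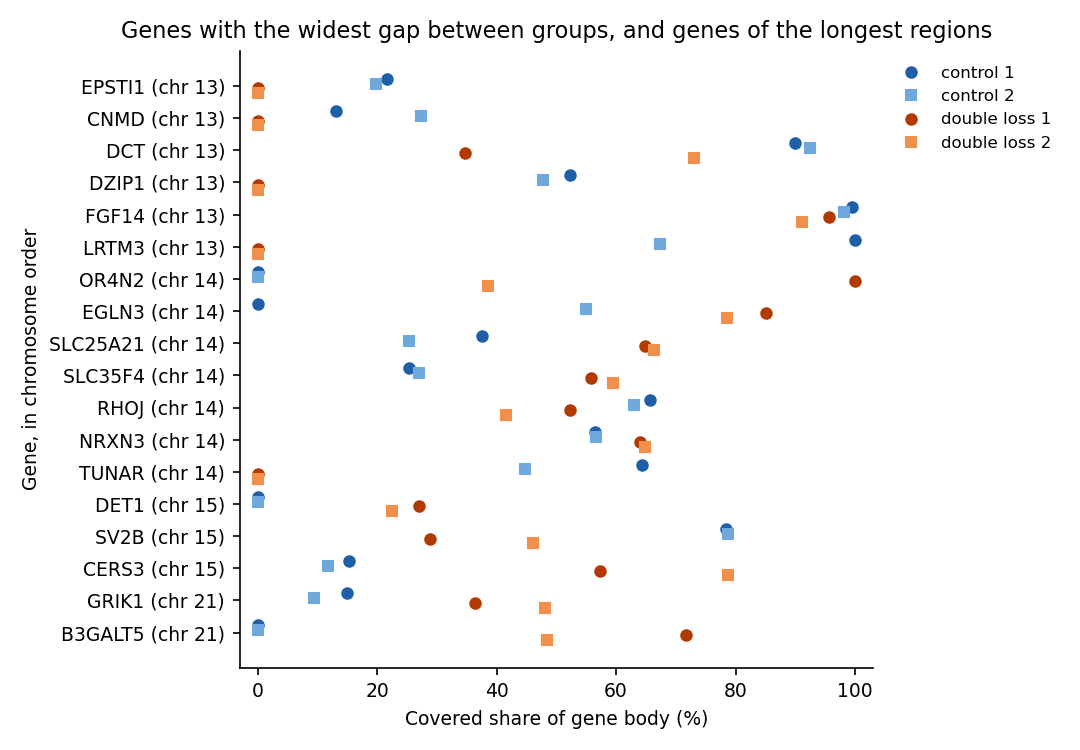
Covered share of gene bodies (x axis, percent) for genes with the widest gap between groups and genes of the longest regions (y axis, in chromosome order), with 1 point per library. For B3GALT5 and OR4N2 both control points are at 0, and for LRTM3, DZIP1 and TUNAR both double loss points are.

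None of the listed long genes of chromosomes 13 and 14 passed the limma threshold. Of 21 adhesion and neuronal genes of chromosome 13, 11 were covered and none rose or fell. Groups did not overlap for 1 that was higher and 3 that were lower, and over all covered genes of chromosome 13 the counts were 4 (5.19%) and 18 (23.4%) of 77. FGF14 was nearly filled, with 99.4% and 98.1% in control and 95.7% and 91.2% in double loss. TDRD3, a Tudor domain partner of topoisomerase III beta, had 10.6% and 21.3% against 0% and 0%. NBEA, neurobeachin, had 18.9% and 13.4% against 24.9% and 20.8%, and its difference changed to -0.55 points with the upper 50% of regions.

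Of 16 listed genes of chromosome 14, mostly neuronal but with SLC25A21 among them, 8 were covered and none rose or fell. Groups did not overlap for 5, all higher, and over all covered genes of that chromosome for 18 (29.0%) higher and 4 (6.45%) lower of 62. NRXN3 had 56.4% and 56.7% against 64.1% and 64.9%, although its own start left the regions. STXBP6, a syntaxin-binding protein, had 9.56% and 4.99% against 39.9% and 28.5%. Of 14 other long genes of chromosome 15, 7 were covered and none rose or fell. AGBL1, a carboxypeptidase that removes glutamates from tubulin, had 21.6% and 18.3% against 36.5% and 32.4%. RORA, a nuclear receptor of the circadian clock, had 25.8% and 23.2% against 14.7% and 13.1%.

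On chromosome 21, 6 of 17 genes of its gene-poor stretch were covered (2 higher and 1 lower without overlap, none rose or fell), and over all covered genes of that chromosome 5 (16.1%) were higher and 2 (6.45%) lower of 31. Of 49 keratin-associated genes, 11 were covered, and 2 of them, KRTAP11-1 and KRTAP19-8, rose, against 1.67% of covered genes genome-wide. They are 0.937 kb and 0.318 kb long, under the 1 kb step, so each tends to lie wholly inside or outside a region. Neither call was kept with 10 kb flanks. The long genes MYO18B and SYN3 of chromosome 22 were in no region of any list.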

How the data were processed

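LaminB1 CUT&RUN libraries of HCT116 cells were sequenced as paired 75 bp reads, per the labels' protocols. Reads were aligned to hg38 with Bowtie2 2.3.4.3 and handled with Picard, per the submitters' processing notes. No region caller is given in the sources used here. The authors deposited 1 region list per library, with whole-number counts of LaminB1 and control library reads, a p-value, its adjusted form (at most 0.0500 here)and, for each region, a log2 fold and a score, per the file headers. The deposited score is 100 times the deposited log2 fold, which is log2 of LaminB1 over control counts minus 1 constant per list. Counts are of reads inside regions only, so library depth is unknown here and densities were set relative to the same library. The lists were called per library. IgG libraries (2) were not analysed here.

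Covered share, width and density were computed in 1 kb steps with Python 3.11.15 (scipy 1.17.1, pandas 2.3.3, numpy 2.4.6) and RefSeq genes of GRCh38.p14, which shares its primary coordinates with hg38. Library values were compared by exact permutation tests. Bins of 100 kb (at least 5% covered in 1 library) and gene bodies (covered in 1 library) were fitted with limma 3.58.1 in R 4.3.3 on all chromosomes. LaminB1 counts in stretches called in all 4 lists were apportioned by length to 1 Mb windows, rounded and fitted with edgeR 4.0.16 (TMM), with DESeq2 1.42.0 as an alternative. Adjustment was by Benjamini-Hochberg, at a threshold of 0.05. Fits were tested on simulated data.

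The chromosomes, gene lists and rules were chosen with earlier results of these data known. Named genes were genes over 20 kb long whose groups did not overlap, the 8 with the largest gap in each direction (at most 1 per 1 Mb), the genes under the longest regions, the first gene of each chromosome, and 3 members per list, by size of the difference; further genes are named as lists or stretches hold them. Alternatives changed the regions counted, origins, bins, flanks, scale, normalization and libraries. Some genes that these rules name are not reported here.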

Additional observations from a re-analysis of the deposited data

How the results depend on the processing

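With 2 libraries per group, no test of library values could pass 0.05, so their alternatives bear on direction only. In all, 634 alternative values were computed for 76 results. Of these, 10 changed sign, 33 counts of calls moved, 49 values for windows or genes lost a call and 23 gained one. Counts of calls, and values that kept the main difference under another test, could not change sign. A difference that fell to 0, as for B3GALT5 with the upper 50% of regions, was not counted as a change of sign. Depth inside regions limits what the lists show: sequence under the caller's threshold is absent from them. For chromosome 22, no median width could be computed from the upper 50% of regions by log2 fold, since a list held none there.

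With that upper 50%, the difference at 0 to 5 Mb was -0.046 points, and that of CERS3 was -1.87, of DCT 4.80 and of NBEA -0.55 points. Leaving out each library moved the difference beyond 40 Mb between -0.471 and 0.876 points, with -0.159 without double loss 2. It moved the difference in median width between -1.5 kb and 6.5 kb on chromosome 13 and between -2.25 kb and 5.25 kb on 21. The relative LaminB1 density of chromosome 21 ranged from -0.0295 to 0.0458 on the log2 scale. In shared stretches the difference of chromosome 15 was -0.0073. The cause was not tested.

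Windows that rose numbered 1 with DESeq2, 0 where regions lay at least 80% in shared stretches, and 1 to 2 with a library left out. Windows that fell numbered 2, 4, and 4 to 7 in the same order. Bins that rose numbered 0 on untransformed shares, 0 with a filter of 1 kb, 12 at 50 kb, 0 with the upper 50% of regions, and 2 to 124 with a library left out. Bins that fell numbered 8 at 50 kb, 1 at 250 kb, and 0 to 65 with a library left out. Genes that rose and fell numbered 0 and 0 with 10 kb flanks, and 6 to 37 and 5 to 30 with a library left out. A group left with 1 library is assumed to vary like the other.

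Replicate numbers do not pair the libraries: deviations of same-numbered libraries had a correlation of -0.01. With the replicate number as a block, 1 window rose, and 0 bins rose, and 0 genes rose and 0 fell, each with fewer residual degrees of freedom.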

Other observations

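Gene clusters of the 5 chromosomes were also read for coverage; they were chosen after the values were seen and are given as descriptions. The immunoglobulin heavy chain locus (chr14:105586937-106879844), which holds the antibody heavy chain segments near the end of the long arm, was covered over 30.3% and 25.7% in control and 36.2% and 34.5% in double loss, with no overlap between groups (exact permutation p = 0.333, two-sided). The T cell receptor alpha and delta locus (chr14:21621904-22552132) had 2.68% in control 1 and 0% in the other 3 libraries. The immunoglobulin lambda locus of chromosome 22 (chr22:22026076-22922913) was covered in no list.

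The keratin-associated gene cluster (chr21:30281309-31038476) had 6.07% and 14.2% in control and 25.7% and 29.3% in double loss. The olfactory receptor cluster of chromosome 14 (chr14:19712936-20244349) had 4.32% and 0% against 39.2% and 28.5%. Groups did not overlap at either. The protease genes of mast cells and lymphocytes around CTSG and GZMB (chr14:24573518-24634190) had 51.6% and 29.0% against 71.0% and 51.6%, and their groups overlapped. The olfactory receptor genes OR4F6 and OR4F15 at the end of chromosome 15 had 0% and 0% against 33.3% and 100%.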
